A study of Homo sapiens with 8 samples.

Results

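The genes of the HLA class I pathway were followed in Jurkat cells, an established human T-cell acute lymphoblastic leukemia line, with and without CBAP, the protein encoded by TMEM102. They are 9 genes chosen by symbol: the heavy chains HLA-B, HLA-C, HLA-E and HLA-F, the light chain B2M, the peptide transporter genes TAP1 and TAP2, the tapasin gene TAPBP and the class I activator NLRC5. Of these 9 genes, 8 had an entry of their own among the 13453 entries of the expression table, and all 8 were among the 11427 genes tested. TAPBP was present only in an entry that joins it with its neighbor ZBTB22, which is described on its own and is not counted among the 8 genes.

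Class I molecules display short peptides from the inside of the cell to cytotoxic T cells. A heavy chain folds around a peptide and pairs with β2-microglobulin, the product of B2M. The peptides are cut by the proteasome, carried into the endoplasmic reticulum by the transporter of TAP1 and TAP2, and loaded with the help of tapasin. The promoters of these genes are known to respond to NLRC5, which acts through factors bound at a conserved set of upstream boxes, and to interferon through IRF and STAT proteins. HLA-E presents peptides taken largely from the leader sequences of other class I chains and is a ligand of natural killer cell receptors, and HLA-F is a non-classical chain.

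RNA-seq libraries were analysed from 4 kinds of Jurkat cells, with 2 libraries each. In the shRNA set, sh-Ctrl cells carried a non-targeted lentiviral shRNA and sh-CBAP cells, labelled as CBAP knockdown, carried an shRNA against CBAP. In the CRISPR set both kinds of cells carried a CRISPR/Cas9 knockout of CBAP and expressed either CBAP-GFP (CBAP-reconstituted) or GFP (CBAP-KO+GFP, labelled as CBAP knockout). The sh-Ctrl and CBAP-reconstituted libraries formed the CBAP-expressing class and the others the CBAP-deficient class, with 4 libraries each. The knockout cells were clones grown from single cells. The clone or shRNA behind each library, and whether the 2 libraries of a condition came from separate cultures, are not given in the sources used here, so the p-values measure the spread between these libraries, which may be technical. Set, method of CBAP loss and clone cannot be told apart.

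Values are FPKM, fragment numbers divided by exon length and by the mapped total, as deposited, so levels of different genes are compared per length. TMEM102 had FPKM values of 4.07 and 4.74 in sh-Ctrl and of 2.69 and 2.89 in sh-CBAP cells, while every library of the CRISPR set had a 0 for it, so this gene gave no check of the labels there. All 12 T cell markers present were above 0 in every library, and of 12 B cell and myeloid markers 2, CD79A and FCER1G, were in the table. The depth behind each value is unknown, because FPKM is already scaled and small values did not fall on multiples of 1 read. The libraries summed to between 362082 and 434742 FPKM and held between 606 and 1256 genes listed at 0, and such a 0 can be a failed estimate.

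HLA-F, HLA-E, HLA-C, HLA-B, TAP2, TAP1 and TAPBP lie in the major histocompatibility complex on chromosome 6 of GRCh37. There HLA-F runs from 29690552 to 29706305 and HLA-E from 30457286 to 30461971, both on the plus strand. On the minus strand follow HLA-C from 31236526 to 31239907, HLA-B from 31321649 to 31334844, TAP2 from 32789610 to 32806516, TAP1 from 32812986 to 32821593 and TAPBP from 33267471 to 33282061. B2M, between 45003556 and 45011049 of chromosome 15, and NLRC5, between 57023397 and 57117443 of chromosome 16, are on the plus strand. All are protein-coding in GENCODE, and the values cover their exons.

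Promoters are shown first, because the class I activators named above act there. RefSeq promoters (start sites of GRCh38.p14) were found for 6 of the 8 genes, and the 250 bases before the start were each matched exactly once in GRCh37. Those of both classical chains, of B2M and of TAP1 are given here, because several of the differences described further on concern them. Capitals mark matches, on either strand, to a core of the interferon-stimulated response element (ISRE, GAAANNGAAA), the CCAAT box, the TGACG core of the cyclic AMP response element, an interferon gamma activated site (GAS, TTCNNNGAA) or a κB pattern (GGGANNTCC or GGGGANTCC).
HLA-B, chr6:31324957-31325206, minus strand: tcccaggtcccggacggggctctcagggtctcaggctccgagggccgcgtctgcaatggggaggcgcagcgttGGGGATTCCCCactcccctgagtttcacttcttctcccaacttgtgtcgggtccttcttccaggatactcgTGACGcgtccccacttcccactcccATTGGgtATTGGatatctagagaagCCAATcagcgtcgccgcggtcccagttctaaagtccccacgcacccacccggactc
HLA-C, chr6:31239870-31240119, minus strand: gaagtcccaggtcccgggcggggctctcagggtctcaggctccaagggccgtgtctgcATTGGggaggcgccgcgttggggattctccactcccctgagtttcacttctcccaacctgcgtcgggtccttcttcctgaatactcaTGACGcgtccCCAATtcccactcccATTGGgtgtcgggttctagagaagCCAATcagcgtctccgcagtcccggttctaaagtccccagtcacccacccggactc
B2M, chr15:45003465-45003714, plus strand: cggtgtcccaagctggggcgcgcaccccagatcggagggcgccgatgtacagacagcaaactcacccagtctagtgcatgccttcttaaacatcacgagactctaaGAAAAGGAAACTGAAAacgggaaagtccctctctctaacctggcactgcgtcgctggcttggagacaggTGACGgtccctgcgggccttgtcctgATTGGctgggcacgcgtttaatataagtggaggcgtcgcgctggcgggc
TAP1, chr6:32821482-32821731, minus strand, first of its 2 starts in the table: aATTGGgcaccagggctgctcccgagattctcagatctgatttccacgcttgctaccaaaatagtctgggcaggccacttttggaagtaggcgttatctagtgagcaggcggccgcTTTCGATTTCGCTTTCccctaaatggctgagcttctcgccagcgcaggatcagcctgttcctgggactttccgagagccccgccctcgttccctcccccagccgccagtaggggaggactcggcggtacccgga
HLA-B and HLA-C shared a TGACG core, 106 to 102 and 105 to 101 bases before the start, and a CCAAT box on the plus strand, 56 to 52 bases before it in both. HLA-B also held a κB pattern that was read on both strands, in overlapping positions. B2M and TAP1 each held 2 overlapping ISRE cores, 144 to 129 bases before the start in B2M and 134 to 119 bases before it in TAP1. Of the promoters not shown, those of TAP2 and HLA-F each held 1 ISRE core. Over 35116 RefSeq promoters of the same length, 3.02% held the ISRE core, 32.0% the CCAAT box, 21.2% TGACG, 6.57% the GAS and 5.32% the κB pattern. A match describes these letters and was not tested as a binding site. Elements that depart from these letters are not marked, so a promoter without a match, such as HLA-B or HLA-C for the ISRE core, may still hold one.

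Among the heavy chains, both classical genes stood highest. HLA-C had FPKM values of 74.6 and 81.5 in sh-Ctrl, 91.6 and 83.6 in sh-CBAP, 111 and 111 in CBAP-reconstituted, and 102 and 100.1 in CBAP-KO+GFP cells. The 4 libraries of the CRISPR set thus lay above all 4 libraries of the shRNA set. HLA-B had FPKM values of 52.5 and 57.0 in sh-Ctrl, 73.1 and 60.6 in sh-CBAP, 82.8 and 79.5 in CBAP-reconstituted, and 80.3 and 69.2 in CBAP-KO+GFP cells. Its sh-Ctrl libraries were the lowest of all, while the other conditions partly overlapped. In every library HLA-C exceeded HLA-B, with a ratio of 1.25 to 1.45.

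The non-classical chains were less abundant. HLA-E had FPKM values of 18.4 and 16.2 in sh-Ctrl, 28.5 and 20.2 in sh-CBAP, 26.5 and 27.7 in CBAP-reconstituted, and 29.0 and 27.4 in CBAP-KO+GFP cells. Both sh-Ctrl libraries again lay below the other 6. The sh-CBAP libraries differed from each other, and the first was the higher for HLA-B, HLA-C and HLA-E alike. HLA-F was listed at 3.22 and 2.91 in sh-Ctrl, 5.69 and 0 in sh-CBAP, 4.45 and 5.16 in CBAP-reconstituted, and 0 and 4.94 in CBAP-KO+GFP cells, so its level could not be compared where a library was at 0.

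B2M, which every class I molecule needs, was the most abundant of the genes. Its FPKM was 684 and 705 in sh-Ctrl, 784 and 803 in sh-CBAP, 857 and 883 in CBAP-reconstituted, and 1354 and 1428 in CBAP-KO+GFP cells. The conditions did not overlap, and both CBAP-KO+GFP libraries stood far above the other 6. The ratio of B2M to the sum of HLA-B, HLA-C and HLA-E in the same library, a measure chosen after the values were seen, was 6.40 and 7.26 in CBAP-KO+GFP cells, against 3.89 and 4.04 in CBAP-reconstituted, 4.70 and 4.56 in sh-Ctrl, and 4.05 and 4.88 in sh-CBAP cells.

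TAP1 and TAP2 encode the partner chains of the peptide transporter. TAP1 had FPKM values of 15.2 and 16.5 in sh-Ctrl, 15.2 and 14.4 in sh-CBAP, 26.1 and 23.8 in CBAP-reconstituted, and 21.0 and 19.3 in CBAP-KO+GFP cells. The shRNA set lay below the CRISPR set, and within the CRISPR set the CBAP-reconstituted libraries were the higher. TAP2 varied less, with FPKM values of 19.3 and 21.1 in sh-Ctrl, 21.5 and 23.2 in sh-CBAP, 24.3 and 24.4 in CBAP-reconstituted, and 24.6 and 22.3 in CBAP-KO+GFP cells. The ratio of TAP1 to TAP2 was 0.784 and 0.781 in sh-Ctrl, 0.705 and 0.623 in sh-CBAP, 1.07 and 0.974 in CBAP-reconstituted, and 0.855 and 0.862 in CBAP-KO+GFP cells.

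NLRC5, the activator of class I promoters, was a low-level transcript. Its FPKM was 4.68 and 4.75 in sh-Ctrl, 6.67 and 4.45 in sh-CBAP, 4.67 and 4.97 in CBAP-reconstituted, and 7.36 and 6.98 in CBAP-KO+GFP cells. Both CBAP-KO+GFP libraries were the highest of all 8, the first sh-CBAP library came next, and the other sh-CBAP library was the lowest. The order of its conditions thus differed from that of the heavy chains, in which CBAP-reconstituted and CBAP-KO+GFP cells stood together.

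The first comparison asked which genes change when CBAP is knocked down. None of the 8 genes passed an adjusted p of 0.05 in sh-CBAP against sh-Ctrl cells, by limma on log2(FPKM + 1), and 2 had an unadjusted p under 0.05. Across all genes tested, 3.62% were called higher and 8.7% lower, which is 414 and 994 genes, with 845 and 830 after quantile normalization and 720 and 949 after upper-quartile scaling. With the shRNA set fitted alone 58 genes were called higher and 17 lower, far fewer and with the opposite split. The 2 genes with an unadjusted p under 0.05 were HLA-E, with a log2 difference of 0.46 (SE 0.16, adjusted p = 0.123), and B2M, with 0.19 (SE 0.050, adjusted p = 0.0643). For HLA-B the log2 difference was 0.28 (SE 0.11, adjusted p = 0.171), for HLA-C 0.16 (SE 0.067, adjusted p = 0.167), for TAP2 0.14 (SE 0.075, adjusted p = 0.284), for NLRC5 0.18 (SE 0.16, adjusted p = 0.4996) and for TAP1 -0.09 (SE 0.080, adjusted p = 0.491). The median over the 8 genes was 0.17, against -0.06 over all genes tested, and 6 of the 8 genes lay above the latter. The second sh-CBAP library decided part of this, since 2 genes were called without it, HLA-E at 0.69 and NLRC5 at 0.42. B2M alone was called after upper-quartile scaling, at 0.24.

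The second comparison asked the same of the knockout. In CBAP-KO+GFP against CBAP-reconstituted cells, B2M and NLRC5 rose and TAP1 fell, so 3 of the 8 genes were called. In this comparison 23.9% of all genes tested were higher and 25.9% lower, so that a share of 2 of 8 higher and 1 of 8 lower is near the background. The split of 2734 higher and 2963 lower genes became 3609 and 2573 after upper-quartile scaling. B2M rose by 0.68 on the log2 scale (SE 0.050, adjusted p = 0.000308), a ratio of mean FPKM of 1.60. It was called in all 19 alternatives, with adjusted p from 0.000162 to 0.00719. NLRC5 rose by 0.49 (SE 0.16, adjusted p = 0.0483) and TAP1 fell by 0.30 (SE 0.080, adjusted p = 0.0264).

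Both smaller calls depended on the setting. NLRC5 kept its direction but was called in 7 of 19 alternatives, with adjusted p up to 0.191, and lost its call without either library of sh-Ctrl, CBAP-reconstituted or CBAP-KO+GFP cells, with differences of 0.45 to 0.53. TAP1 was called in 14 of 19 alternatives, with adjusted p up to 0.154. It lost its call after quantile normalization, at -0.27, after upper-quartile scaling, at -0.21, and without either CBAP-reconstituted library or the second CBAP-KO+GFP library, at -0.23, -0.36 and -0.24. The heavy chains were not called, with log2 differences of -0.12 for HLA-B (SE 0.11, adjusted p = 0.421), -0.13 for HLA-C (SE 0.067, adjusted p = 0.154) and 0.05 for HLA-E (SE 0.16, adjusted p = 0.811). With the CRISPR set fitted alone HLA-C was called, at -0.13 with an adjusted p of 0.00999. TAP2 differed by -0.05 (SE 0.075, adjusted p = 0.582). In this comparison the median over the 8 genes was -0.09 and that of all genes tested was 0.

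Whether knockdown and knockout differed was tested as the change in the shRNA set minus that in the CRISPR set. B2M was the only one of the 8 genes called, with a difference of -0.49 (SE 0.071, adjusted p = 0.00568), and 33.8% of all genes tested were called. The rise of B2M was larger in the knockout, in each of 18 alternatives. For HLA-C the difference of the changes was 0.30 (SE 0.094, adjusted p = 0.0596) and for HLA-B 0.40 (SE 0.16, adjusted p = 0.111). For HLA-E it was 0.40 (SE 0.22, adjusted p = 0.220) and for NLRC5 -0.31 (SE 0.23, adjusted p = 0.333). HLA-C was called without the second sh-Ctrl library, at 0.36. Without the second sh-CBAP library 4 genes were called, HLA-C at 0.36, HLA-B at 0.53 and HLA-E at 0.64 beside B2M, and without the first NLRC5 was called beside B2M, at -0.56.

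With the sets pooled, 0 of the 8 genes differed between the 4 CBAP-deficient and the 4 CBAP-expressing libraries by limma. None had an unadjusted p under 0.05, and 0 were called in each of 19 alternatives. Over all genes tested 0.621% were called. Those were 24 higher and 47 lower genes, with 94 and 79 after quantile normalization and 102 and 96 after upper-quartile scaling. The log2 difference was 0.43 for B2M (SE 0.23, adjusted p = 0.324) and 0.33 for NLRC5 (SE 0.15, adjusted p = 0.257). The FPKM of B2M ranged from 684 to 883, with a median of 781, in the CBAP-expressing class and from 784 to 1428, with a median of 1079, in the CBAP-deficient class, so the classes overlapped.

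**Figure D1:**
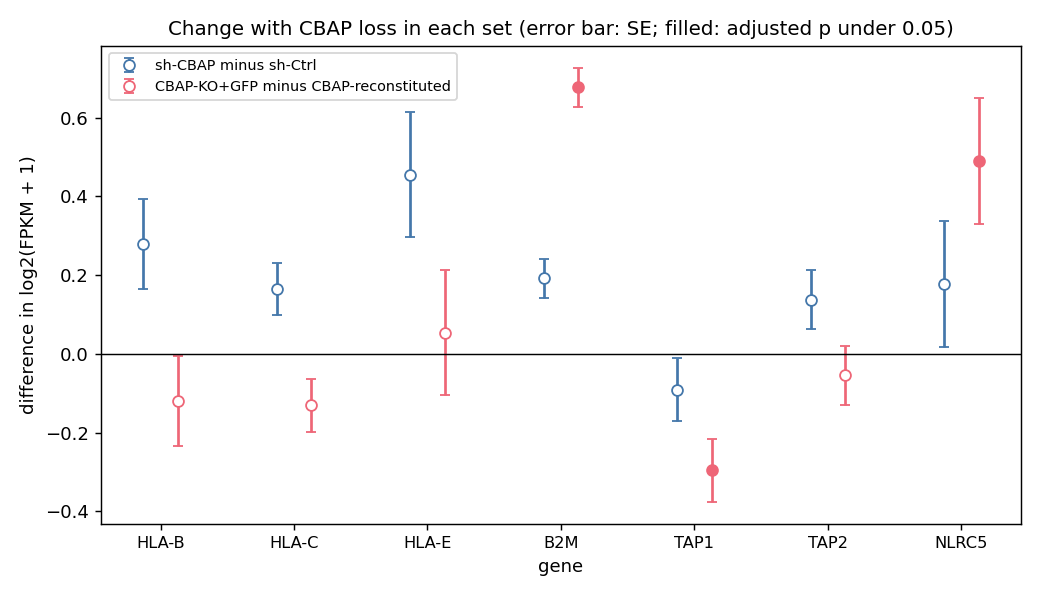
Difference in log2(FPKM + 1) with its SE for 7 genes, in the shRNA set (sh-CBAP minus sh-Ctrl) and in the CRISPR set (CBAP-KO+GFP minus CBAP-reconstituted), with filled points for an adjusted p under 0.05. B2M at 0.68, NLRC5 at 0.49 and TAP1 at -0.30 are filled in the CRISPR set, and no point is filled in the shRNA set. HLA-F, which is listed at 0 in 2 libraries, is left out.

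The levels were also compared between the sets. In CBAP-reconstituted against sh-Ctrl cells, 6 of the 8 genes were called higher and 0 lower. The share called higher among all genes tested was 28.7%, with 10.7% lower, or 3277 and 1220 genes, which became 1984 and 1644 after quantile normalization and 1577 and 2000 after upper-quartile scaling. The median of all genes tested was itself shifted by 0.17, and the median of the 8 genes was 0.51. TAP1 was higher by 0.62 (SE 0.080, adjusted p = 0.00330) and HLA-E by 0.62 (SE 0.16, adjusted p = 0.0280), ratios of mean FPKM of 1.58 and 1.57. HLA-B was higher by 0.56 (SE 0.11, adjusted p = 0.0141), HLA-C by 0.50 (SE 0.067, adjusted p = 0.00369), B2M by 0.32 (SE 0.050, adjusted p = 0.00596) and TAP2 by 0.26 (SE 0.075, adjusted p = 0.0414). HLA-F, at 0.51 (SE 1.12, adjusted p = 0.745), and NLRC5, at 0.03 (SE 0.16, adjusted p = 0.914), were not called.

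TAP1 and HLA-C were called in all 18 alternatives. After either of the other scalings 2 of the 8 genes were called, and 7 of the 8 remained above the median of all genes tested, which was then 0.05 and -0.00308. The calls of HLA-E were lost without any 1 of the 4 libraries compared, at 0.53 to 0.71, and that of B2M without the second CBAP-reconstituted library, at 0.30. The call of HLA-B was lost without the first sh-Ctrl library or either CBAP-reconstituted library, at 0.50 to 0.59. The call of TAP2 was lost without those libraries or either CBAP-KO+GFP library, at 0.20 to 0.26. This comparison shares its libraries with those within the sets.

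The CBAP-deficient cells of both sets were compared in the same way. In CBAP-KO+GFP against sh-CBAP cells, 3 of the 8 genes were called higher and 0 lower, with 37.9% of all genes tested higher and 14.8% lower. These 4333 and 1695 genes became 2973 and 2591 after quantile normalization and 3346 and 2496 after upper-quartile scaling. B2M was higher by 0.81 (SE 0.050, adjusted p = 0.000200), TAP1 by 0.42 (SE 0.080, adjusted p = 0.00779) and HLA-C by 0.21 (SE 0.067, adjusted p = 0.0437), while the median of all genes tested was 0.20. TAP1 kept its direction after the other scalings but lost its call, at 0.22 (adjusted p = 0.114) after quantile normalization and 0.28 (adjusted p = 0.0509) after upper-quartile scaling, which left B2M as the one gene called. HLA-C moved about as far as the median gene, and it was called in 9 of 18 alternatives. It lost its call without either CBAP-reconstituted library, either CBAP-KO+GFP library or the second sh-CBAP library, at 0.14 to 0.22. Without the first sh-CBAP library 5 of the 8 genes were called, with HLA-E at 0.46 and NLRC5 at 0.58 added.

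**Figure D2:**
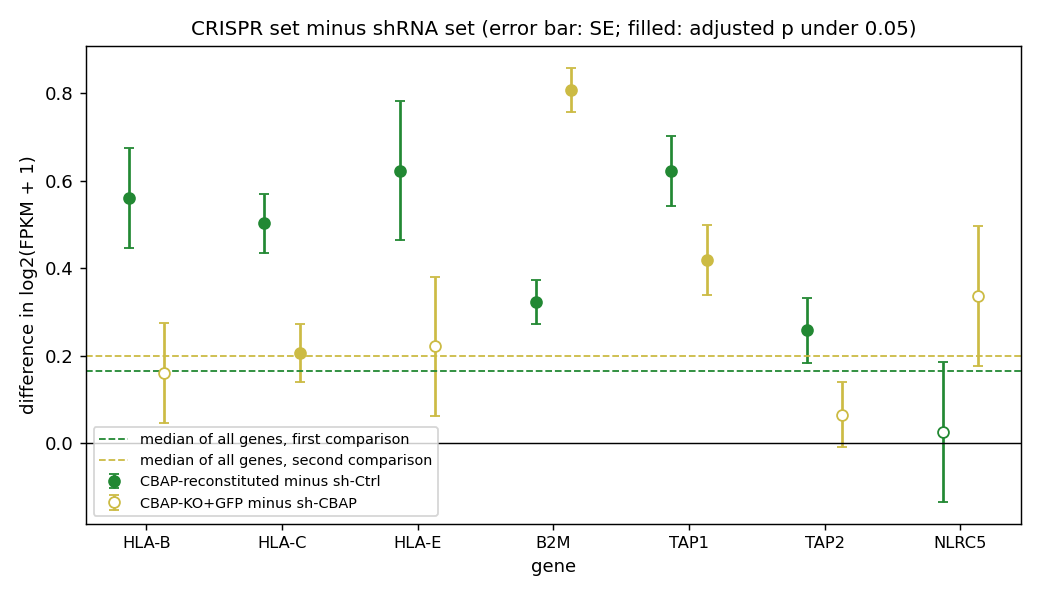
Difference in log2(FPKM + 1) with its SE between the sets for 7 genes, for CBAP-reconstituted minus sh-Ctrl and for CBAP-KO+GFP minus sh-CBAP cells, with filled points for an adjusted p under 0.05 and dashed lines at the medians of all genes tested, 0.17 and 0.20. HLA-B, HLA-C, HLA-E and TAP1 lie well above the line in the first comparison, and B2M in the second.

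Entries of the class I region were listed at 0 in some libraries. The zeros of HLA-F fell in the second sh-CBAP and the first CBAP-KO+GFP library, and 16 of the genes tested were at 0 in exactly these. The joint entry of TAPBP and ZBTB22 was listed at 27.8 and 27.4 FPKM in sh-Ctrl, 0 and 25.5 in sh-CBAP, 0 and 0 in CBAP-reconstituted, and 31.0 and 30.4 in CBAP-KO+GFP cells. The values above 0 lay close together, and no difference in tapasin can be read from the others. ZBTB22 lies from 33282183 to 33285719, next to TAPBP on the same strand, and 195 entries of the table are named for several genes in this way. Of the genes tested, 885 (7.74%) were at 0 in at least 1 library. HLA-F had fitted log2 differences of -0.65 (SE 1.12, adjusted p = 0.740) in the knockdown and -1.25 (SE 1.12, adjusted p = 0.392) in the knockout, which rest on its zeros and on the pseudocount.

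**Figure D3:**
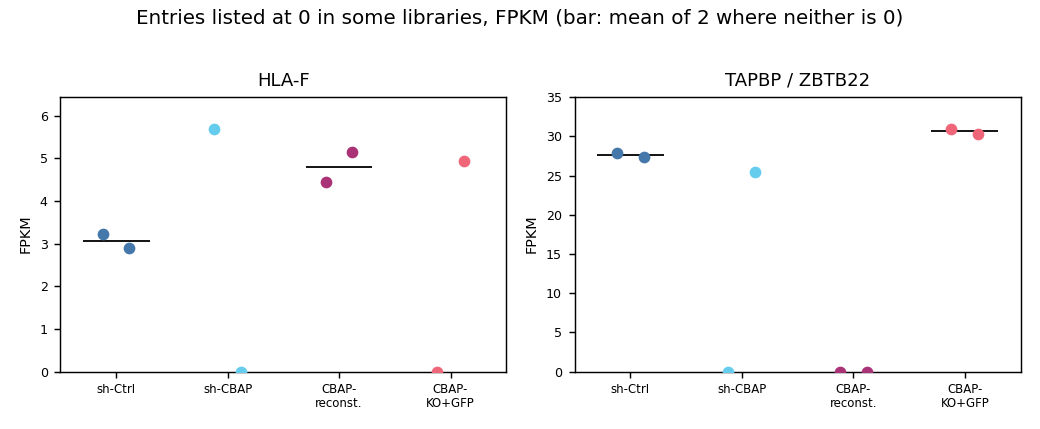
FPKM per library of HLA-F and the joint entry of TAPBP and ZBTB22, with a point for each library and a bar at the mean of 2 libraries where neither is 0. HLA-F is at 0 in 1 sh-CBAP and 1 CBAP-KO+GFP library, and the joint entry is at 0 in 1 sh-CBAP and both CBAP-reconstituted libraries.

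Shared sequence also limits single genes. In the GENCODE transcripts 23.9% of the 100-base windows of HLA-B occur in the pseudogene DHFRP2 and 17.5% of those of TAP2 in a readthrough gene. Both partners overlap the gene at its own place on the same strand, by 1421 exon bases for HLA-B and 2023 for TAP2. The annotation behind the FPKM is not given, so how far this touched HLA-B and TAP2 is not known. Of HLA-C 0.13% and of HLA-E 0.4995% of windows were shared with other class I genes. For HLA-F, B2M, TAP1 and NLRC5 0 windows were shared. HLA-F shares 535 exon bases with HLA-F-AS1 and TAP1 shares 672 with PSMB8-AS1, each on the opposite strand. The library protocol is not stated to keep strand, so reads there cannot be assigned to one partner. The reference sequence of the HLA genes is not that of the Jurkat alleles, and how this affected their FPKM was not tested.

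The proteasome genes that serve this pathway fell together in the knockout. The immunoproteasome list holds PSMB8, PSMB9 and PSMB10, the interferon-inducible catalytic subunits, PSME1 and PSME2, the activator subunits, and POMP, an assembly factor of all proteasomes. In the knockout 6 of 6 fell, where 25.9% of all genes tested were lower, with a median log2 difference of -0.70, and 6 of 6 were lower in each of 19 alternatives. PSMB10 had FPKM values of 77.6 and 72.1 in CBAP-reconstituted and 27.1 and 28.1 in CBAP-KO+GFP cells, against 55.1 and 59.5 in sh-Ctrl and 56.7 and 41.6 in sh-CBAP cells. It fell by 1.40 (SE 0.14, adjusted p = 0.000858) and POMP fell by 1.03 (SE 0.048, adjusted p = 6.22e-05). PSMB9 fell by 0.79, PSME2 by 0.60, PSME1 by 0.51 and PSMB8 by 0.42, and these 4 genes are named after their values were seen.

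None of the 6 was called in the knockdown by limma, with a lowest adjusted p of 0.177, and for 5 of 6 genes knockdown and knockout changes differed by the test between sets. The constitutive subunits that PSMB8, PSMB9 and PSMB10 replace were lower in the knockout as well. PSMB5 was at 173 and 169 FPKM in CBAP-reconstituted and at 67.7 and 64.9 in CBAP-KO+GFP cells, PSMB6 at 306 and 306 and at 117 and 122, and PSMB7 at 271 and 285 and at 166 and 158. PSMB8 therefore stood at 1.72 and 1.82 times PSMB5 in CBAP-KO+GFP cells, above the 0.754 to 0.936 of the other 6 libraries, while PSMB10 stood at 0.164 and 0.178 times PSMB7, below the 0.188 to 0.286 of the others. The remaining pair did not stand apart, since PSMB9 was at 0.194 and 0.201 times PSMB6 in CBAP-KO+GFP cells, within the 0.135 to 0.205 of the other 6 libraries.

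**Figure D4:**
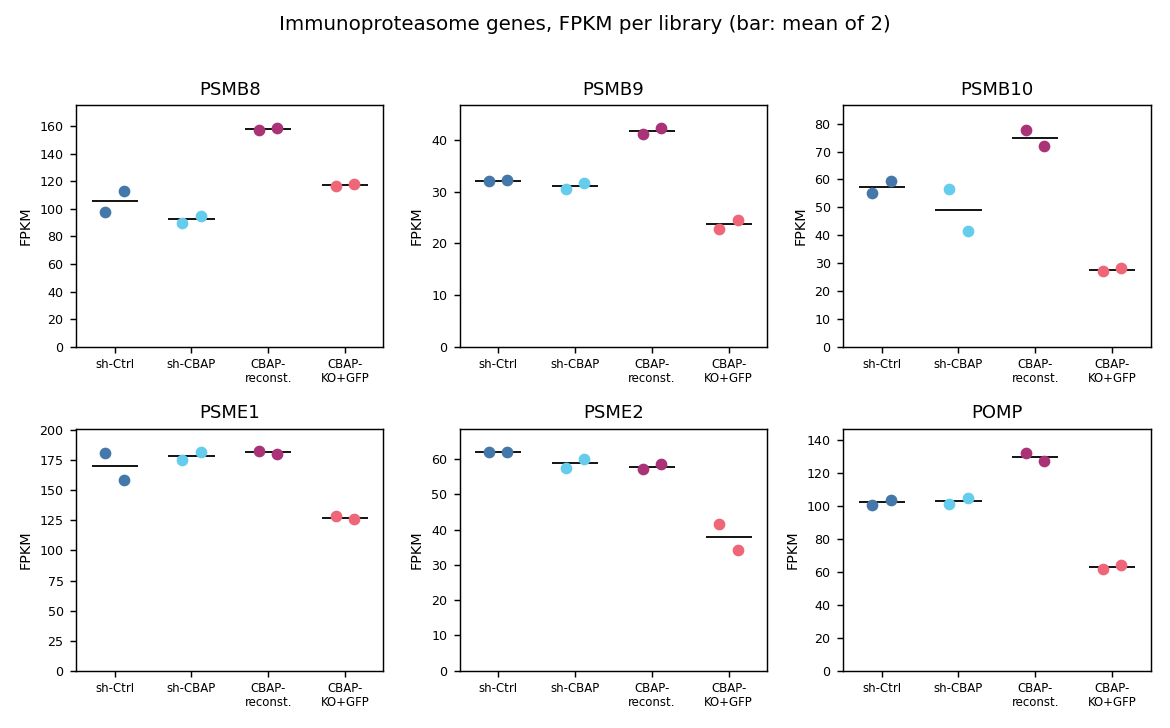
FPKM per library of PSMB8, PSMB9, PSMB10, PSME1, PSME2 and POMP, with a point for each library and a bar at the mean of 2. In all 6 panels both CBAP-KO+GFP libraries lie below both CBAP-reconstituted libraries, and for all but PSMB8 they are the lowest of the 8.

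Genes for loading and trimming of peptides showed no common direction. All 10 of the list were tested, and 2 were higher and 0 lower in the knockdown, where 3.62% and 8.7% of all genes tested were, and 4 higher and 2 lower in the knockout, where 23.9% and 25.9% were. The same shares are the background of the lists that follow. The knockdown calls of single genes depended on the fit. With the shRNA set fitted alone all of those named here and in the following lists were lost but those of TAPBPL and IFNAR2, which rest on conditions listed at 0. LNPEP, an aminopeptidase of endosomes that also trims peptides for presentation, rose by 1.16 in the knockout (SE 0.083, adjusted p = 0.000265), from 6.62 and 6.31 to 15.1 and 16.2 FPKM. Its level was 12.1 and 10.6 FPKM in sh-Ctrl cells, so the rise started from the lowest libraries. TPP2, a cytosolic peptidase, rose by 0.51 (SE 0.12, adjusted p = 0.0161), and ERAP2, a trimming enzyme of the endoplasmic reticulum, fell by 0.31 (SE 0.072, adjusted p = 0.0162). IFI30, a lysosomal thiol reductase, rose by 0.39 in the knockdown (SE 0.053, adjusted p = 0.0134) and fell by 0.45 in the knockout (SE 0.053, adjusted p = 0.00135). TAPBPL, the tapasin-related editor, was called in the knockdown, but was listed at 0 in both sh-Ctrl libraries and lay between 3.08 and 4.42 FPKM in the other 6. Without 1 library of the CRISPR set the genes called in the knockout fell to 1 or 2 higher and 1 lower.

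Other class I and class I-like genes were tested for 13 of the 20 listed. In the knockdown 1 was higher and 3 were lower, where 3.62% and 8.7% of all genes tested were. In the knockout 2 were higher and 3 lower, no larger shares than the 23.9% and 25.9% of all genes tested. Without either CBAP-reconstituted library 0 were higher and 1 was lower in each comparison. CD1E, a lipid antigen presentation gene, fell in both, by 2.51 (SE 0.36, adjusted p = 0.0160) and by 1.44 (SE 0.36, adjusted p = 0.0210). CD1C fell by 1.90 in the knockdown (SE 0.24, adjusted p = 0.0107), and CD1B fell by 1.84 in the knockout (SE 0.17, adjusted p = 0.000667). CD1B was at 41.1 and 40.5 FPKM in CBAP-reconstituted cells, above the 20.5 and 14.9 of sh-Ctrl cells. MICB, a stress-induced ligand of NKG2D, rose by 0.34 in the knockdown (SE 0.062, adjusted p = 0.0269), and MICA, its relative, rose by 0.75 in the knockout (SE 0.19, adjusted p = 0.0195). MR1, which presents vitamin metabolites, rose by 0.34 in the knockout (SE 0.064, adjusted p = 0.00724) and fell by 0.28 in the knockdown (SE 0.064, adjusted p = 0.0459). FCGRT, the neonatal Fc receptor chain, was called lower in the knockout, but its values were 0 in the second sh-CBAP and both CBAP-KO+GFP libraries, against 27.4 to 37.2 FPKM in the other 5.

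Class II genes, which antigen-presenting cells use, were tested for 2 of 13. Both fell in the knockout. HLA-DQB1 was at 3.08 and 3.16 FPKM in CBAP-reconstituted and at 0.175 and 0.212 in CBAP-KO+GFP cells, a log2 difference of -1.79 (SE 0.082, adjusted p = 5.97e-05), and it also fell by 0.57 in the knockdown (SE 0.082, adjusted p = 0.0160). HLA-DOA fell by 1.66 in the knockout (SE 0.091, adjusted p = 0.000107). In sh-Ctrl cells HLA-DQB1 was at 0.889 and 0.931 FPKM and HLA-DOA at 1.31 and 1.29. For both genes the CBAP-reconstituted libraries were the highest. Both were low-level genes, and FPKM values this small are not firm in the absence of counts.

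The factors that bind or modify class I promoters were all in the table, and 21 of 21 were tested. In the knockdown 1 was higher and 2 lower, and in the knockout 7 were higher and 4 lower, against 3.62% and 8.7%, and 23.9% and 25.9%, of all genes tested. IRF1, an interferon-induced activator of class I genes, fell by 0.47 in the knockout (SE 0.072, adjusted p = 0.00347), from 23.6 and 24.2 to 17.1 and 16.8 FPKM. EED, a subunit of the Polycomb complex, fell by 0.66 (SE 0.062, adjusted p = 0.000649). KAT2B, an acetyltransferase, rose by 0.82 (SE 0.21, adjusted p = 0.0199) and NFYB, a subunit of the factor that binds the CCAAT box, rose by 0.82 (SE 0.23, adjusted p = 0.0296). RFXANK and RFXAP, subunits of the RFX factor of the class I and class II boxes, fell in the knockdown by 0.60 (SE 0.14, adjusted p = 0.0459) and 0.42 (SE 0.097, adjusted p = 0.0459), and CREBBP, a coactivator, rose by 0.34 (SE 0.072, adjusted p = 0.0378). All 3 of these calls were lost with the shRNA set alone, and without the first sh-Ctrl library or any 1 library of the CRISPR set, which each left 0 genes of the list called in the knockdown. Without the second sh-Ctrl library 1 higher and 0 lower genes were called.

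Interferon receptor and signalling genes, of which all 14 were tested, had 3 higher and 0 lower in the knockdown, and 5 higher and 2 lower in the knockout, against 3.62% and 8.7%, and 23.9% and 25.9%, of all genes tested. STAT2, which also stands in the promoter list, rose by 0.62 in the knockout (SE 0.14, adjusted p = 0.0130). IFNGR2, a chain of the interferon gamma receptor, fell by 0.58 in the knockout (SE 0.16, adjusted p = 0.0304), and SOCS3, an inhibitor of the pathway, rose by 0.55 in the knockdown (SE 0.093, adjusted p = 0.0220). IFNAR2, a chain of the type I interferon receptor, had values of 0 in all 4 CBAP-expressing libraries and of 32.6 to 33.5 FPKM in all 4 CBAP-deficient libraries. It is counted among the higher genes of both sets, but these calls rest on conditions listed at 0. Such a 0 can be a failed estimate, so no rise of IFNAR2 is read from them.

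Interferon-stimulated genes were tested for 22 of 33. In the knockdown 4 were higher and 0 lower, and in the knockout 7 were higher and 7 lower, against 23.9% and 25.9% of all genes tested. The 4 genes of the knockdown, where 3.62% of all genes were higher, became 0 with the shRNA set alone, 1 without either CBAP-reconstituted library and 2 without either sh-Ctrl library. XAF1 rose by 3.61 in the knockout (SE 0.15, adjusted p = 4.34e-05) and IFITM1 by 2.24 (SE 0.19, adjusted p = 0.000501), while GBP1 fell by 2.25 (SE 0.17, adjusted p = 0.000312) and ISG15 by 1.28 (SE 0.12, adjusted p = 0.000645). For XAF1, IFITM1 and GBP1 the CBAP-reconstituted cells also lay apart from sh-Ctrl cells, in the direction away from CBAP-KO+GFP cells. XAF1 was at 1.04 and 0.823 FPKM in CBAP-reconstituted and 6.51 and 7.65 in sh-Ctrl cells. IFITM1 was at 10.4 and 9.51 against 25.0 and 23.9, and GBP1 at 3.95 and 4.05 against 0.748 and 1.48. ISG15, a ubiquitin-like modifier, was at 158 and 167 FPKM in CBAP-reconstituted, 71.9 and 61.3 in CBAP-KO+GFP, and 133 and 158 in sh-Ctrl cells. In the knockdown IFITM2, of a family of antiviral membrane proteins, rose by 1.01 (SE 0.14, adjusted p = 0.0155) and IFITM3 by 0.83 (SE 0.095, adjusted p = 0.00890).

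Markers of the cells themselves also moved. Of 11 T cell markers tested, 2 were higher and 2 lower in the knockdown, where 3.62% and 8.7% of all genes tested were. In the knockout 6 were higher and 0 lower, where 23.9% of all genes tested were higher and 25.9% lower. With the shRNA set alone 0 were called in the knockdown. Their summed FPKM was 2024 and 2468 in CBAP-KO+GFP, 1545 and 1535 in CBAP-reconstituted, 1749 and 1915 in sh-CBAP, and 1694 and 1719 in sh-Ctrl cells. CD5 was at 0.18 and 0.231 FPKM in CBAP-reconstituted cells and between 19.7 and 27.4 in the other 6 libraries, a log2 difference of 4.55 in the knockout (SE 0.060, adjusted p = 9.12e-07), and CD28 differed by 3.32 (SE 0.10, adjusted p = 1.72e-05). CD28 was likewise low in CBAP-reconstituted cells, at 2.93 and 2.59 FPKM against 24.1 and 29.2 in sh-Ctrl cells. In the knockdown TRAT1 rose by 1.12 (SE 0.12, adjusted p = 0.00690), CD2 rose by 0.95 (SE 0.11, adjusted p = 0.00895), LCK fell by 0.43 (SE 0.044, adjusted p = 0.00669) and ZAP70 fell by 0.39 (SE 0.081, adjusted p = 0.0355). Of the B cell and myeloid list 1 gene was tested, CD79A, at 0.732 and 1.09 FPKM in CBAP-reconstituted and 9.60 and 9.91 in CBAP-KO+GFP cells, a log2 difference of 2.50 (SE 0.22, adjusted p = 0.000515), and the summed level of that list was 2.09 to 22.5 FPKM. CD79A was at 22.5 and 14.5 FPKM in sh-Ctrl cells, above both conditions of the CRISPR set. The part of these markers in the class I results was not tested.

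Ligands that natural killer cells and phagocytes read, a list of 10 symbols with 5 tested, had 1 higher and 0 lower in the knockdown and 2 higher and 1 lower in the knockout, against 3.62% and 8.7%, and 23.9% and 25.9%, of all genes tested. In this list CD155 and PVR name the same gene, as do NECTIN2 and PVRL2, and the expression table held PVR and PVRL2. CD48, a ligand of the receptor CD244, rose by 0.35 in the knockdown (SE 0.065, adjusted p = 0.0287) and by 1.84 in the knockout (SE 0.065, adjusted p = 2.59e-05). Its FPKM was 27.2 and 28.8 in sh-Ctrl, 37.4 and 34.4 in sh-CBAP, 1.92 and 1.98 in CBAP-reconstituted, and 9.61 and 9.53 in CBAP-KO+GFP cells. The rise in the knockout thus started from the lowest level of all, and CBAP-KO+GFP cells stayed below sh-Ctrl cells. Its knockdown call was lost with the shRNA set alone and without any 1 library of sh-Ctrl, CBAP-reconstituted or CBAP-KO+GFP cells. PVRL2, a ligand of the receptor CD226, rose by 0.45 in the knockout (SE 0.12, adjusted p = 0.0274), and CD47, which inhibits phagocytosis, fell by 1.38 (SE 0.19, adjusted p = 0.00249).

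The genes most like the class I genes over the 8 libraries were named by Pearson's r of log2(FPKM + 1), with no test, since the points are 4 conditions of 2 libraries each. For the mean of the 4 standardized heavy chains these were MATR3 (r = 0.971), STAMBP (r = 0.970), OSGIN1 (r = 0.968), CRIP1 (r = 0.957) and IL18BP (r = 0.957). MATR3 was listed at 0 in 3 libraries, both of sh-Ctrl and the second of sh-CBAP. With HLA-F and its zeros left out of the mean, the highest were SHC1 (r = 0.984), OSGIN1 (r = 0.979) and MYD88 (r = 0.969). MYD88, an adaptor of Toll-like receptors, was at 31.5 and 36.5 FPKM in sh-Ctrl, 42.3 and 37.5 in sh-CBAP, 50.3 and 49.0 in CBAP-reconstituted, and 47.9 and 46.7 in CBAP-KO+GFP cells, an order like that of HLA-B. For NLRC5 they were ATG9A (r = 0.988), ABCB6 (r = 0.987), MYCN (r = 0.977), TIAM1 (r = 0.972) and ZNF629 (r = 0.963). ATG9A and ABCB6 were listed at 0 in the 5 libraries other than the first of sh-CBAP and both of CBAP-KO+GFP. MYCN, a transcription factor of the MYC family, was at 4.27 and 5.16 FPKM in sh-Ctrl, 11.1 and 5.43 in sh-CBAP, 5.53 and 5.34 in CBAP-reconstituted, and 14.9 and 13.9 in CBAP-KO+GFP cells, high in the same 3 libraries as NLRC5.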

How the data were processed

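RNA of 8 Jurkat-derived libraries, 2 of each of 4 conditions taken from the labels of the samples, was analysed from 1 table. The authors deposited FPKM values, which per their methods and notes came from reads aligned to hg19 (submitters' processing notes: CASAVA 1.8, Bowtie, TopHat, Cufflinks and Cuffdiff). The other versions, the annotation, the way Cuffdiff scaled the libraries and whether both sets were processed together are not given in the sources used here, and a difference in scaling would move all genes of a library. FPKM holds no counts, so no interval for depth could be given, and 2 libraries per condition set the precision.

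From these values log2(FPKM + 1) was computed where a gene's mean FPKM reached 1 over the libraries, and tested with limma 3.58.1 (R 4.3.3; empirical Bayes with trend, Benjamini-Hochberg adjustment over all 11427 genes, adjusted p under 0.05). Differences on this scale understate the change of low genes. One model compared the classes, and the other had a mean per condition, with all 8 libraries sharing 1 estimate of the spread. The fit was tested on simulated data with known changes. Python 3.11.15, numpy 2.4.6, pandas 2.3.3 and matplotlib 3.10.9 were used.

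The members and gene lists were chosen with earlier results of these data known. Of each list, up to 2 genes per direction and comparison with the largest change among those called are named, and the genes most like the heavy chains and NLRC5 by Pearson's r. Gene positions are from GENCODE lifted to GRCh37, and promoters from a RefSeq table. Alternatives varied the pseudocount (0.1 and 0.5), the filter (none, or a mean FPKM of 5), scaling, trend, listed zeros, the set as covariate, the libraries in the fit, the replicate block and single libraries left out. Treating listed zeros as missing was chosen after seeing the data. Data of other assays and cells were not used here, and some named results are not reported here.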

Additional observations from a re-analysis of the deposited data

Results flagged for a closer look

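Of 56 named genes and entries examined, 35 changed to a different extent in the sets, by the limma test of the change in the shRNA set minus that in the CRISPR set. Most of them were named for a large called change in 1 of the sets, which favours such a difference, so nothing is read from their number or from the 33.8% of all genes tested that were called. Among the class I genes this was B2M (-0.49). Its SE was 0.071, and both CBAP-KO+GFP libraries lay above both CBAP-reconstituted libraries. The joint entry of TAPBP and ZBTB22 (-7.46) and TAPBPL (1.99) rest on conditions listed at 0 and on the pseudocount. In the immunoproteasome the differences were 1.17 for PSMB10, 1.04 for POMP, 0.75 for PSMB9, 0.58 for PSME1 and 0.53 for PSME2, and among trimming genes 0.84 for IFI30 and -1.35 for LNPEP. Among class I-like and class II genes they were 0.44 for MICB, -2.28 for CD1C, -0.62 for MR1, 2.19 for CD1B, 1.22 for HLA-DQB1 and 1.57 for HLA-DOA. Among promoter regulators and signalling genes they were -0.56 for RFXAP, 0.52 for EED, 0.48 for IRF1, 0.76 for SOCS3 and -0.64 for STAT2. Among interferon-stimulated genes they were 0.73 for IFITM3, -3.10 for XAF1, -2.11 for IFITM1, 2.12 for GBP1 and 0.90 for ISG15. Among T cell markers they were 1.23 for TRAT1, -1.85 for CD2, -0.40 for LCK, -0.96 for ZAP70, -4.63 for CD5 and -3.24 for CD28, and elsewhere -2.81 for CD79A, -1.50 for CD48 and 1.54 for CD47. Set, method and clone cannot be told apart in these differences. In 18 groups of 4 libraries, the 8 genes and the joint entry in each class, 0 libraries stood apart by Dixon's criterion. By chance it marks about 1 group in 20 where all values come from 1 condition. Each group here joined different conditions, whose difference widens the range, so nothing is read from the 0.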

How the results depend on the processing

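Of 352 values of the class I genes recomputed with all libraries kept, 320 kept their direction and their side of the threshold, and 233 of 272 did with 1 library left out. Of the list genes 570 of 608 and 348 of 456 did, and the rest lost their call. Reversed values were small or came from HLA-F. They were, in the knockout, 0.094 for HLA-B and 0.096 for HLA-C after quantile normalization and 0.031 for TAP2 after upper-quartile scaling, and -0.13 for NLRC5 between the CBAP-expressing conditions after upper-quartile scaling. With listed zeros as missing HLA-F differed by 0.72 in the knockdown and 0.036 in the knockout. With 1 library left out it ranged from -2.02 to 0.72 and from -2.53 to 0.036, TAP2 in the knockout from -0.12 to 0.011, and NLRC5 from -0.069 to 0.42 in the knockdown and from -0.00987 to 0.063 between the CBAP-expressing conditions.

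The class I genes called went from 0 to 1 in the knockdown after upper-quartile scaling and with listed zeros as missing, from 3 to 1 in the knockout after either other scaling, from 1 to 2 for the difference with listed zeros as missing, from 6 to 2 in CBAP-reconstituted against sh-Ctrl cells and from 3 to 1 in CBAP-KO+GFP against sh-CBAP cells after either other scaling. With 1 library left out they were 0 to 2 in the knockdown, 1 to 3 in the knockout, 1 to 4 for the difference, 2 to 6 and 2 to 5. The higher end was reached without the second sh-CBAP library for the knockdown and the difference.

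Of all genes, 71 were called between the classes, 108 with no filter, 173 after quantile normalization, 198 after upper-quartile scaling, 108 with listed zeros as missing, 1404 with the set as a covariate and 8 to 76 with 1 library left out. In the knockdown 1408 were called, 75 (58 higher, 17 lower) in the shRNA set alone and 306 to 2376 with 1 library left out. With 1 library left out the knockout gave 3376 to 6847, the difference 1849 to 5149 and CBAP-reconstituted against sh-Ctrl cells 1624 to 5929. The cause of these shifts was not tested.

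With the replicate block 11 genes were called between the classes and 776 in the knockdown. The labels give the conditions the same numbers without saying that these mark a shared batch. Across the genes tested, the difference between the first and the second library correlated between pairs of conditions at -0.063 to 0.146. Whether same-numbered libraries shared a batch was not tested. Under the block NLRC5 in the knockout, HLA-C in CBAP-KO+GFP against sh-CBAP cells and TAP2 in CBAP-reconstituted against sh-Ctrl cells lost their calls. Of the named list genes, RFXANK, RFXAP, CREBBP, CD48, MR1, SOCS3 and ZAP70 lost their calls in the knockdown and RFXANK in the knockout.

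Over 19 alternatives the knockout gave 6 of 6 immunoproteasome genes lower in each, 1 to 6 higher and 1 to 3 lower loading genes, 0 to 12 higher and 3 to 5 lower promoter regulators, 6 to 9 higher and 3 to 8 lower interferon-stimulated genes, and 5 to 10 higher and 0 to 1 lower T cell markers. It gave 0 to 3 higher and 1 to 4 lower class I-like genes, 3 to 6 higher and 1 to 4 lower interferon signalling genes, and 1 to 2 higher and 1 lower natural killer ligands. The knockdown gave 1 to 3 higher loading genes, 0 to 3 higher and 1 to 5 lower class I-like genes, 0 to 3 higher and 0 to 4 lower promoter regulators, 1 to 6 higher and 0 to 3 lower interferon signalling genes, 0 to 7 higher and 0 to 1 lower interferon-stimulated genes, 0 to 3 higher and 0 to 2 lower T cell markers, 0 to 2 higher natural killer ligands, and 0 to 1 lower genes each of class II and of the immunoproteasome. The depth is unknown, so its share in these ranges could not be given.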
